A study of Mus musculus with 12 samples.

Results

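A list of 42 imprinted genes, those of the named imprinted clusters other than the *Peg10* cluster, was followed among the 23420 genes of the count tables. The genes were taken by name, and all 42 were found in both tables. No measured value entered the rule, but the list was chosen with earlier results of these data known. In 22 of them the paternal allele is known to be the expressed copy and in 18 the maternal allele. For *Gnas* the expressed copy depends on the isoform and for *Grb10* on the tissue. Imprinting is known in the embryo itself for 33 genes, mainly in placenta for 5 (*Cd81*, *Tssc4*, *Nap1l4*, *Sfmbt2* and *Dcn*) and mainly in neurons or brain for 4 (*Ube3a*, *Blcap*, *Commd1* and *Rasgrf1*).

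An imprinted gene is transcribed mainly from the copy inherited from a given parent. In most clusters a stretch of DNA that is methylated in egg or sperm, the imprinting control region, sets the expression of several neighbouring genes, often through a long noncoding RNA or a shared set of enhancers. Many imprinted genes act on the growth of the embryo and placenta, through insulin-like growth factors and their receptors, cell cycle inhibitors and regulators of progenitor cells. Others act in the developing brain and muscle.

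RNA came from homogenized whole mouse embryos at E12.5, with polyA selection, and each library is a separate embryo. Of the *Carm1* line, 3 embryos were *Carm1* KO/KO, homozygous for the Carm1tm1Mtb allele that lacks exons 2 and 3 of the arginine methyltransferase gene *Carm1*, and 3 were wild type, all of strain C57BL/6. Of the *Pax3* line, 3 embryos were *Pax3* Sp2H/Sp2H (Splotch), null for the transcription factor gene *Pax3*, and 3 were wild type, all from a closed colony of mixed background. All embryos came from intercrosses of heterozygous mice, each mutation is present in every cell, and no inducible or tissue-limited allele was used. The lines share no library, and strain, colony, laboratory of husbandry and mutated gene differ together between them. A count per gene does not tell the parental copies apart, so a change of level can come from either allele. In whole embryos fewer cells of a type and less RNA per cell cannot be told apart.

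Libraries held 17183344 to 23518692 counts. *Carm1* itself fell in the *Carm1* line, from 137 to 151 CPM (counts scaled to library size by TMM) in wild types to 69.3 to 76.2 CPM in mutants (log2 fold change −0.998, SE 0.050, edgeR adjusted P = 1.2e-15). *Pax3* fell in the *Pax3* line from 25.0 to 30.9 CPM to 18.1 to 22.4 CPM (log2 fold change −0.43, SE 0.095, edgeR adjusted P = 0.0014). Wild-type replicate 3 of the *Carm1* line, and wild-type replicates 2 and 3 and mutant replicate 3 of the *Pax3* line, held 4447 to 6118 counts on 4 Y-linked genes against 0 to 23 in the other libraries, so the sexes were not evenly spread over the groups.

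The members covered a wide range of levels. Per kilobase of exon (RPKM, with exon lengths from the GENCODE annotation, so approximate), *H19* stood highest in *Carm1*-line wild types at 1750 ± 27.6 (mean ± SD, n = 3), followed by *Igf2* at 594 ± 7.90, *Nnat* at 488 ± 6.63, *Cdkn1c* at 433 ± 15.6 and *Mest* at 295 ± 4.97 RPKM. The 3 wild-type libraries of *H19*, *Igf2*, *Nnat*, *Cdkn1c* and *Mest* did not overlap between neighbours in this order. At the other end, *Rasgrf1*, a guanine nucleotide exchange factor of adult brain, had 0.0771 ± 0.00285 RPKM and was too low to be tested in the *Pax3* line. The members together took 1.78% to 1.94% of all counts in each library, with *H19* and *Igf2* alone 0.684% to 0.780%. The median of the members was 91.1 CPM in the *Carm1* line against 26.1 over all genes tested, so their changes were measured on more counts than those of a typical gene.

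**Figure D1:**
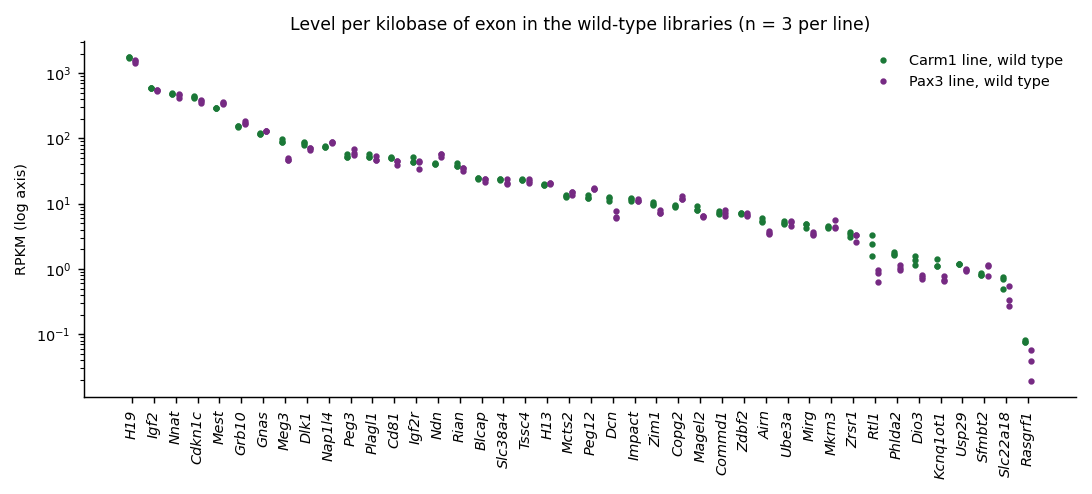
Level of each of the 42 imprinted genes in RPKM (log axis) in the 3 wild-type libraries of each line, as points, with genes ordered by their mean in the *Carm1* line. *H19* lies highest and *Rasgrf1* lowest, and the *Pax3*-line points of *Meg3*, *Dcn* and *Rtl1* lie below those of the *Carm1* line.

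Of the 42 genes 14 passed the threshold (edgeR's quasi-likelihood test, Benjamini-Hochberg adjusted P below 0.05 over all genes) in the *Carm1* line, 4 higher and 10 lower in mutants. That is 33.3% of the members, where 13.3% of all 15811 genes tested passed, 5.49% higher and 7.83% lower. Their median log2 fold change was −0.065 against 0.0014 over all genes. Of the 41 genes tested in the *Pax3* line 14 passed, 6 higher and 8 lower. That is 34.1%, where 24.5% of all 15724 genes passed (14.0% higher, 10.5% lower), and the median was −0.060 against −0.0026. At an unadjusted P below 0.05 the counts were 22 and 20 members. The share over all genes was not counted at that threshold, so these counts have no background beside them. With offsets that correct each library for GC content and transcript length, 7 members rose and 10 fell in the *Carm1* line, where 59.6% of all called genes were higher in place of 41.2%. Apart from *Phlda2*, members called in the main test lay between −0.54 and 0.48 on the log2 scale.

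Genes of either parental class changed in both directions. Of paternally expressed genes, 3 rose and 5 fell among 22 in the *Carm1* line, and 1 rose and 4 fell among 21 tested in the *Pax3* line. Of the 18 maternally expressed genes, 1 rose and 5 fell in the *Carm1* line, and 5 rose and 3 fell in the *Pax3* line. The plot of all members shows both classes on both sides of 0, and no test was made between the classes.

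**Figure D2:**
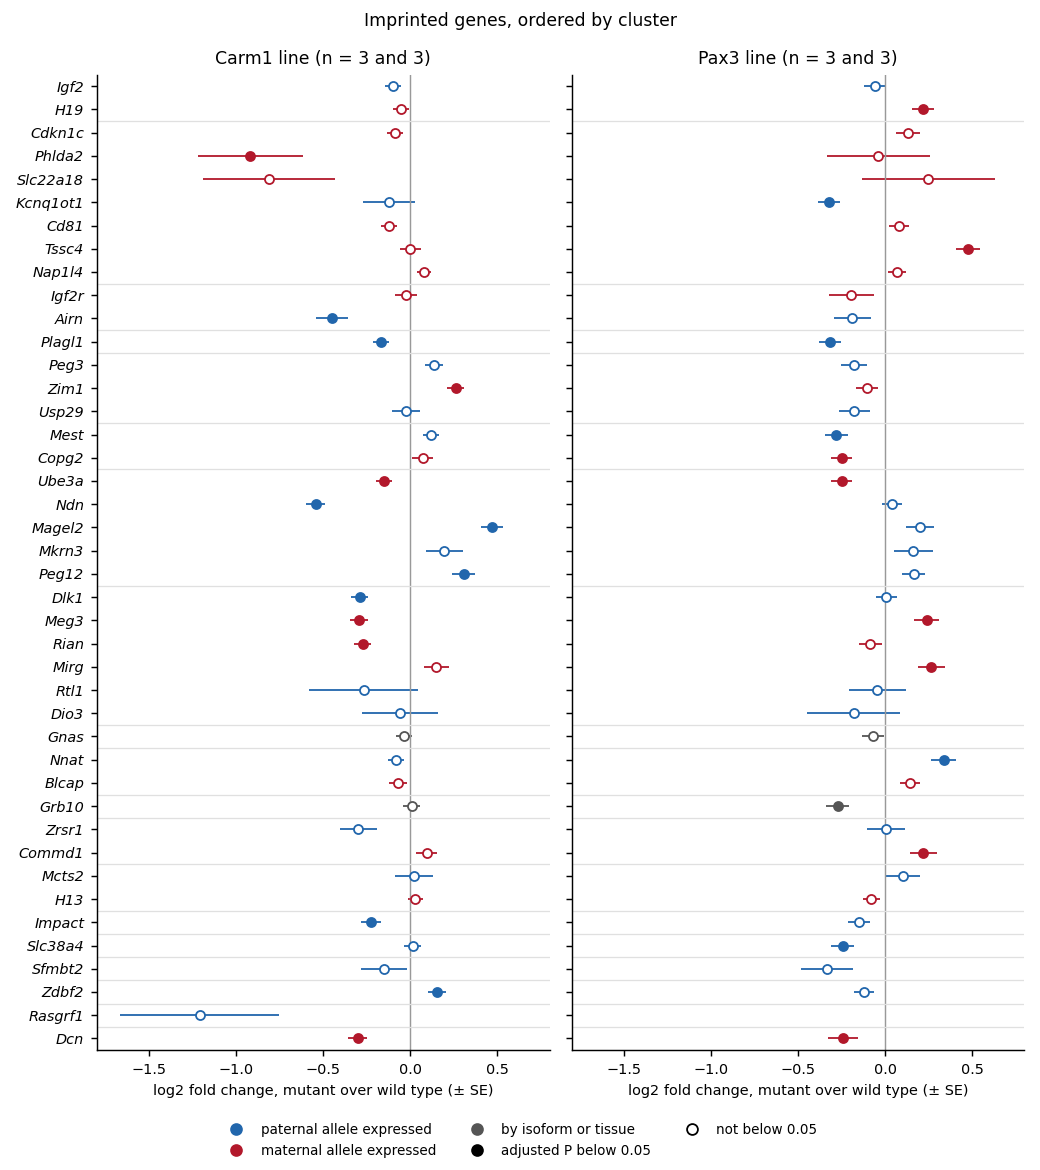
Log2 fold change of each of the 42 imprinted genes, mutant over wild type, in the *Carm1* line (left) and the *Pax3* line (right), with points for the edgeR estimate, bars for its standard error, colours for the expressed parental copy and filled points for an adjusted P below 0.05. Filled points of both colours lie on either side of 0 in both lines, 4 to the right and 10 to the left in the *Carm1* line and 6 to the right and 8 to the left in the *Pax3* line, and *Rasgrf1* has no point in the *Pax3* line.

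The genes of the *Ndn* cluster on chromosome 7, the mouse counterpart of the Prader-Willi and Angelman region, held the largest change in either direction in the *Carm1* line, apart from the sparsely counted *Phlda2* and the uncalled *Rasgrf1* and *Slc22a18*. *Ndn* (chr7:62346569-62350262, + strand), which encodes the MAGE family protein necdin of differentiating neurons and muscle, had 146, 146 and 155 CPM in wild types and 109.7, 91.6 and 105 CPM in mutants. Every mutant library lay well below every wild-type library (log2 fold change −0.54, SE 0.053, edgeR adjusted P = 1.3e-08). *Magel2* (chr7:62377010-62381640, + strand), another intronless MAGE gene, starts 30.4 kb further on and moved the other way, with 41.5, 37.1 and 36.4 CPM in wild types and 50.4, 51.8 and 56.3 CPM in mutants (log2 fold change 0.47, SE 0.063, edgeR adjusted P = 2.4e-06). *Peg12* (chr7:62461871-62464510, − strand), a relative of the Frat genes of Wnt signalling, starts 118 kb from *Ndn*. It had 32.0, 35.0 and 31.3 CPM in wild types and 41.3, 42.1 and 38.4 CPM in mutants, again with no overlap (log2 fold change 0.31, SE 0.066, edgeR adjusted P = 0.0014). *Mkrn3*, a ring finger gene between them, had 10.7, 11.3 and 10.9 against 12.8, 13.1 and 11.8 CPM and did not pass (log2 fold change 0.20, SE 0.10, edgeR adjusted P = 0.23). So among 4 paternally expressed genes that lie within 118 kb, 1 fell and 2 rose. The calls of *Ndn*, *Magel2* and *Peg12* held under every alternative run.

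Of the outer genes of this cluster, *Ube3a* (chr7:59228750-59311536, + strand), the ubiquitin ligase gene that is maternally expressed in neurons only, lies 3118 kb before *Ndn*. It fell slightly in the *Carm1* line, from 99.8, 102 and 109.9 to 91.8, 93.9 and 95.5 CPM (log2 fold change −0.15, SE 0.049, edgeR adjusted P = 0.034). The call was lost without any one of mutant replicates 1, 2 and 3 and wild-type replicates 2 and 3 (log2 fold changes −0.14, −0.15, −0.16, −0.16 and −0.11, edgeR adjusted P = 0.15, 0.11, 0.071, 0.079 and 0.15). It was also lost with length and GC offsets (−0.090, edgeR adjusted P = 0.13), a Y-linked count term (−0.11, 0.15), all 12 libraries in a single fit (−0.15, 0.088), the replicate number as a block (−0.15, 0.054) and DESeq2 (−0.15, 0.082). Its *Pax3*-line values went from 113, 96.7 and 109 to 92.4, 85.0 and 90.6 CPM (log2 fold change −0.25, SE 0.061, edgeR adjusted P = 0.0038). With the same offsets this came to −0.025 (edgeR adjusted P = 0.78). *Atp10a* and *Chrna7*, the nearest flanking genes tested on each side, did not pass in the *Carm1* line (log2 fold changes −0.097 and 0.33).

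*Ndn*, *Magel2* and *Peg12* did not pass in the *Pax3* line. *Ndn* had 193, 218 and 215 CPM in wild types and 211, 205 and 226 CPM in mutants, and the groups overlapped (log2 fold change 0.039, SE 0.056, edgeR adjusted P = 0.66). *Magel2* had 28.9, 30.4 and 29.9 against 35.9, 35.4 and 31.1 CPM (log2 fold change 0.20, SE 0.082, edgeR adjusted P = 0.075). It did pass there in the single fit of all 12 libraries and with at least 10 counts in every library. *Peg12* had 44.6, 46.4 and 45.3 against 53.1, 50.6 and 49.0 CPM (log2 fold change 0.16, SE 0.068, edgeR adjusted P = 0.076). Tested as an interaction over all 12 libraries, the effect differed between the lines for *Ndn* (interaction −0.57, SE 0.081, edgeR adjusted P = 8.9e-06) and for *Magel2* (interaction 0.28, SE 0.099, edgeR adjusted P = 0.045). For *Peg12* no difference was shown (interaction 0.16, SE 0.088, edgeR adjusted P = 0.23), although it passed with length and GC offsets (0.28, edgeR adjusted P = 0.019). The *Magel2* difference rests on single libraries, since without mutant replicate 3 of the *Pax3* line it was 0.22 (edgeR adjusted P = 0.16). It also lost the threshold without mutant replicates 2 and 3 and wild-type replicates 2 and 3 of the *Carm1* line and wild-type replicates 2 and 3 of the *Pax3* line (0.23 to 0.29, edgeR adjusted P = 0.061 to 0.15), with the replicate block (0.28, 0.051) and with DESeq2 (0.28, 0.059).

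The promoters of the 3 genes that changed are shown because they lie close together while their genes moved in opposite directions. Each runs from 250 bases before to 50 bases after the RefSeq start (GRCm38.p6), 5′ to 3′ on the gene's own strand, with CG dinucleotides, the sites of DNA methylation, in capitals. They are at chr7:62348027-62348326 (+ strand), chr7:62376729-62377028 (+ strand) and chr7:62464461-62464760 (− strand). The start that RefSeq gives for *Ndn* lies 1708 bases inside the GENCODE gene.
Ndn: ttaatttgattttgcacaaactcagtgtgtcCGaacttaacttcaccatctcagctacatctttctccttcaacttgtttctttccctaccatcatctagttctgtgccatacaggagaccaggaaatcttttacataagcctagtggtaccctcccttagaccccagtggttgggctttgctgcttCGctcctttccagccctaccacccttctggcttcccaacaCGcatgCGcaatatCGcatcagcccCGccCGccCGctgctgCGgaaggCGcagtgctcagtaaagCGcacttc
Magel2: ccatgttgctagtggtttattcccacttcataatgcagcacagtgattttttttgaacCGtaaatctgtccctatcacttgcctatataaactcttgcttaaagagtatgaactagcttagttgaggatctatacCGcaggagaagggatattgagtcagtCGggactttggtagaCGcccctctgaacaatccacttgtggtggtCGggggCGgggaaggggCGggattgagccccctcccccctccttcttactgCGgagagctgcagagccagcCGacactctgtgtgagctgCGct
Peg12: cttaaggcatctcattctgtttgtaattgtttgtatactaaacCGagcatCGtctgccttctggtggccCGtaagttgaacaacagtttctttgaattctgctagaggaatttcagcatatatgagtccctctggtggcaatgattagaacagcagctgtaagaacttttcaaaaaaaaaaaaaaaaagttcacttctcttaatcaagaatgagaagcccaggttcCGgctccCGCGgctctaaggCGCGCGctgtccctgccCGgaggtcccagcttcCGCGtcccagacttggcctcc
The windows of *Ndn*, *Magel2* and *Peg12* hold 11, 10 and 12 CG dinucleotides, against a median of 16 over the 36 members with an entry in the RefSeq promoter table and 7 over 32851 promoters of all genes. None of the 3 holds the letters TGCCGC on either strand, the core motif of the imprint-protecting zinc finger protein ZFP57, which 11.6% of all promoters and 8 of the 36 members hold.

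In the *Dlk1*-*Meg3* cluster on chromosome 12, *Dlk1*, *Meg3* and *Rian* fell by similar amounts in the *Carm1* line. *Dlk1* (chr12:109452823-109463336, + strand) encodes an EGF-like membrane protein related to Notch ligands that holds back differentiation of fat, muscle and liver progenitors, and is expressed from the paternal copy. It had 498, 438 and 483 CPM in wild types and 369.7, 380.3 and 409.8 CPM in mutants (log2 fold change −0.29, SE 0.049, edgeR adjusted P = 8.1e-05). *Meg3* (chr12:109541001-109571726, + strand), a long noncoding RNA of the maternal copy, had 1739, 1556 and 1584 CPM in wild types and 1248, 1328 and 1395 CPM in mutants (log2 fold change −0.30, SE 0.052, edgeR adjusted P = 0.00012). *Rian* (chr12:109603940-109661716, + strand), the maternally expressed host of small nucleolar RNAs, had 671, 680.1 and 748 and 563, 586 and 589.6 CPM (log2 fold change −0.27, SE 0.048, edgeR adjusted P = 0.00016). The groups of *Dlk1*, *Meg3* and *Rian* did not overlap, although the genes are read from different parental copies, and their calls held under every alternative run. Downstream, *Mirg*, the host of many microRNAs, had 34.8, 30.6 and 35.4 against 36.8, 34.7 and 40.1 CPM (log2 fold change 0.15, SE 0.070, edgeR adjusted P = 0.17). *Rtl1*, a retrotransposon-derived gene of placental vessels on the opposite strand, and *Dio3*, which inactivates thyroid hormone, did not pass either. *Rtl1* spread widely among wild types (20.6, 15.2 and 9.90 CPM, with 10.6, 14.1 and 12.9 CPM in mutants), and was called lower without wild-type replicate 3 (log2 fold change −0.50, edgeR adjusted P = 0.0042).

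In the *Pax3* line *Meg3* and *Mirg* were the genes of the cluster that were called. *Dlk1* had 413, 408 and 385 CPM in wild types and 385, 415 and 412 CPM in mutants, which overlapped (log2 fold change 0.0082, SE 0.060, edgeR adjusted P = 0.94, 95% interval −0.11 to 0.13). *Meg3* rose from 929.7, 872 and 846 to 955, 1138 and 1034 CPM (log2 fold change 0.24, SE 0.072, edgeR adjusted P = 0.016). *Mirg* rose as well, from 26.7, 25.1 and 24.7 to 30.3, 31.1 and 30.6 CPM (log2 fold change 0.27, SE 0.079, edgeR adjusted P = 0.015), with mutant libraries that lay close together. Both calls depended on single libraries. Without wild-type replicate 3 *Meg3* was at 0.21 (edgeR adjusted P = 0.058) and *Mirg* at 0.24 (0.063). Without mutant replicate 3 they were at 0.24 (edgeR adjusted P = 0.065) and 0.26 (0.059), and without mutant replicate 2 *Meg3* was at 0.17 (0.12). *Rian*, between them, was at log2 fold change −0.084, SE 0.066, edgeR adjusted P = 0.38, but with length and GC offsets it was called higher (0.15, edgeR adjusted P = 0.043). *Meg3* was the only member called lower in the *Carm1* line and higher in the *Pax3* line, and the lines differed for it (interaction −0.53, SE 0.092, edgeR adjusted P = 0.00011) and for *Dlk1* (interaction −0.29, SE 0.076, edgeR adjusted P = 0.0067). For *Rian* no difference was shown (interaction −0.18, SE 0.078, edgeR adjusted P = 0.11), although it passed with those offsets (−0.32, edgeR adjusted P = 0.00017).

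The promoters of *Dlk1* (chr12:109452573-109452872, + strand) and *Meg3* (chr12:109540746-109541045, + strand) are given in the same way, since they head the paternally and the maternally expressed genes of the cluster.
Dlk1: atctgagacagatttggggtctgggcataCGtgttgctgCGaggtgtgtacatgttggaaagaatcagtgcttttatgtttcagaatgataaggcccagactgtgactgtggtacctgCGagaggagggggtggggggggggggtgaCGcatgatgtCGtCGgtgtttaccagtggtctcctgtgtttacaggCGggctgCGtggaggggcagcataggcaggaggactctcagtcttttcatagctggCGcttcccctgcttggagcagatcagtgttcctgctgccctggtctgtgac
Meg3: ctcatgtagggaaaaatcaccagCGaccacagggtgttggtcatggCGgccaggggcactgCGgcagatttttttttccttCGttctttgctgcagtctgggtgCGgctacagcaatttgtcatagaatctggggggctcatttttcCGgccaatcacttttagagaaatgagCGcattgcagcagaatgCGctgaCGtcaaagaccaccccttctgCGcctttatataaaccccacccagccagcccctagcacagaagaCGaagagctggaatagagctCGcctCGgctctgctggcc
They hold 9 and 13 CG dinucleotides. The *Meg3* window has 1 match to TGCCGC, on the strand opposite to the gene, and the *Dlk1* window has none. Within the transcripts of the cluster RefSeq places 14 microRNA hairpins in *Mirg*, 3 in *Rian* and 1 in *Meg3* on the strand of the gene, and 6 opposite to *Rtl1*. Polyadenylated host RNA was counted here, so the values say nothing of the level of these microRNAs. Where counting ignored strand, reads of *Rtl1* and of the antisense transcripts cannot be told apart.

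**Figure D3:**
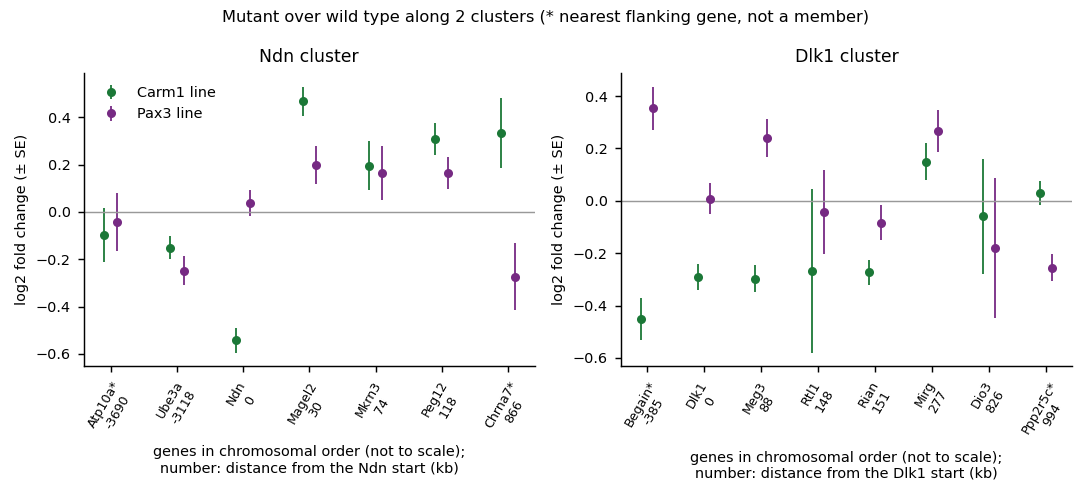
Log2 fold change with its standard error in the *Carm1* line (green) and the *Pax3* line (purple) for the genes of the *Ndn* cluster (left) and the *Dlk1* cluster (right) in chromosomal order, with the distance from the start of *Ndn* or *Dlk1* in kb under each name and the nearest flanking gene tested on each side marked by an asterisk. In the *Carm1* line *Ndn* lies at −0.54 beside *Magel2* at 0.47, and *Dlk1*, *Meg3* and *Rian* lie together near −0.3, while in the *Pax3* line *Meg3* and *Mirg* lie above 0.

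*Begain*, the flanking gene before *Dlk1*, fell in the *Carm1* line (log2 fold change −0.45, SE 0.081, edgeR adjusted P = 0.00019) and rose in the *Pax3* line (0.35, SE 0.083, edgeR adjusted P = 0.0027), as *Meg3* did. Hepatocyte markers moved in the *Carm1* line: 10 of 12 fell and their summed level was 1670 to 2030 CPM in wild types and 918 to 1120 CPM in mutants, with none of the markers at 0. Only 3 of 12 fell and 1 rose in the *Pax3* line, with sums of 1200 to 1480 and 1010 to 1100 CPM. Fetal liver is a site of *Dlk1* expression, and the part of these cells in the result was not tested.

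At the *H19*-*Igf2* locus no member passed in the *Carm1* line. *Igf2* (chr7:142650766-142666816, − strand), the paternally expressed fetal growth factor, had 3397, 3304 and 3349 CPM in wild types and 3052, 3116 and 3216 CPM in mutants. Mutants lay slightly below wild types without overlap, but the change missed the threshold (log2 fold change −0.099, SE 0.047, edgeR adjusted P = 0.17). *H19* (chr7:142575529-142578143, − strand), a maternally expressed noncoding RNA that shares enhancers with *Igf2*, overlapped between the groups (log2 fold change −0.055, SE 0.047, edgeR adjusted P = 0.51). *H19* rose in the *Pax3* line from 3540, 3845 and 3919 to 4316, 4215 and 4619 CPM (log2 fold change 0.22, SE 0.065, edgeR adjusted P = 0.015). *Igf2* there had 3240, 3197 and 3108 and 2929, 3065 and 3166 CPM (log2 fold change −0.059, SE 0.064, edgeR adjusted P = 0.54). The log2 ratio of *H19* to *Igf2* per length was 1.35 to 1.55 in wild types and 1.68 to 1.78 in mutants of the *Pax3* line, against 1.54 to 1.60 and 1.58 to 1.63 in the *Carm1* line. The *H19* call was lost without mutant replicate 3 (0.18, edgeR adjusted P = 0.17) and with length and GC offsets (0.095, edgeR adjusted P = 0.19). The lines differed in the effect on *H19* (interaction −0.26, SE 0.083, edgeR adjusted P = 0.024). That call was lost without mutant replicates 1 and 2 or wild-type replicate 2 of the *Carm1* line or mutant replicate 3 of the *Pax3* line (−0.26 to −0.22, edgeR adjusted P = 0.063 to 0.10), and with length and GC offsets it was −0.13 (0.19).

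In the *Kcnq1* cluster, further along chromosome 7, *Tssc4* showed the largest rise of any member in the *Pax3* line. *Tssc4* (chr7:143069249-143071093, + strand), a factor in assembly of the splicing machinery that is imprinted in placenta, had 38.6, 44.2 and 41.7 CPM in wild types and 57.3, 58.0 and 58.1 CPM in mutants. The mutant libraries lay close together and above all wild types (log2 fold change 0.48, SE 0.068, edgeR adjusted P = 9.6e-06). *Carm1*-line groups of the gene overlapped (log2 fold change 0.0010, SE 0.059, edgeR adjusted P = 0.99, 95% interval −0.11 to 0.12), and the lines differed (interaction −0.47, SE 0.083, edgeR adjusted P = 0.00013). *Kcnq1ot1* (chr7:143203458-143296549, − strand), the paternal antisense RNA that silences its neighbours in cis, fell in the *Pax3* line from 72.0, 62.6 and 64.3 to 54.5, 53.7 and 50.8 CPM (log2 fold change −0.32, SE 0.063, edgeR adjusted P = 0.00045). It spread more in the *Carm1* line, at 128, 103 and 103 and 88.4, 101 and 117 CPM (log2 fold change −0.12, SE 0.15, edgeR adjusted P = 0.69). Both *Pax3*-line calls held under every alternative, but with length and GC offsets the rise of *Tssc4* was 0.23 (edgeR adjusted P = 0.0071) and its difference between the lines −0.23 (0.026). *Cdkn1c* (chr7:143458339-143461050, − strand), the cyclin-dependent kinase inhibitor that restrains growth and the most abundant gene of the cluster per length, had 727, 799.6 and 761 and 810.2, 824 and 870.3 CPM in the *Pax3* line. Its mutants lay above its wild types, but the change did not pass (log2 fold change 0.13, SE 0.068, edgeR adjusted P = 0.16), and with length and GC offsets its sign turned (−0.095). The log2 ratio of *Cdkn1c* to *Kcnq1ot1* per length was 8.85 to 9.19 in wild types and 9.41 to 9.61 in mutants there.

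*Phlda2* (chr7:143501545-143503150, − strand), a maternally expressed gene that limits placental growth, was called lower in the *Carm1* line on few counts, with 1.78, 1.98 and 1.90 CPM in wild types and 0.988, 1.29 and 0.707 CPM in mutants (log2 fold change −0.92, SE 0.30, edgeR adjusted P = 0.038). The call was lost without mutant replicate 1 (log2 fold change −0.91, edgeR adjusted P = 0.12), mutant replicate 3 (−0.73, 0.18), wild-type replicate 2 (−0.88, 0.13) or wild-type replicate 3 (−0.91, 0.073). It was also lost with DESeq2, the replicate block and a term for Y-linked counts (adjusted P = 0.12, 0.057 and 0.065). *Cd81*, a tetraspanin gene, *Nap1l4*, a histone chaperone gene, and *Slc22a18*, a transporter gene, passed in neither line, with log2 fold changes of −0.12, 0.080 and −0.81 in the *Carm1* line and 0.080, 0.068 and 0.25 in the *Pax3* line. Placenta was hardly present in the libraries: of 10 trophoblast markers, 9 had under 10 counts in every library, *Ctsq*, *Prl8a9*, *Psg21* and *Psg23* had 0 in all 12, and the sum was 0.682 to 1.61 CPM.

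At *Igf2r* on chromosome 17 the antisense RNA changed and the receptor gene did not pass. *Airn* (chr17:12741311-12860136, + strand), the paternal noncoding RNA that silences *Igf2r*, had 21.6, 19.4 and 18.8 CPM in *Carm1*-line wild types and 13.3, 15.3 and 15.03 CPM in mutants, without overlap (log2 fold change −0.45, SE 0.091, edgeR adjusted P = 0.00076). *Igf2r* (chr17:12682406-12769664, − strand), the maternally expressed receptor that clears IGF2, had 477, 394 and 395 and 395, 419 and 431 CPM (log2 fold change −0.024, SE 0.065, edgeR adjusted P = 0.86). The log2 ratio of *Igf2r* to *Airn* per length was 2.97 to 3.09 in wild types and 3.40 to 3.52 in mutants. Neither passed in the *Pax3* line (*Airn* log2 fold change −0.19, SE 0.11, edgeR adjusted P = 0.22), and no difference between the lines was shown for *Airn* (interaction −0.25, SE 0.14, edgeR adjusted P = 0.23). *Airn* overlaps *Igf2r* and *Mas1* on the other strand, and *Kcnq1ot1* overlaps *Kcnq1*, so without a stated strand setting their reads cannot be assigned with certainty.

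*Plagl1* (chr10:13060504-13131694, + strand), a paternally expressed zinc finger transcription factor gene, fell in both lines. It had 406, 398 and 441 CPM in wild types and 345, 385 and 378 CPM in mutants of the *Carm1* line (log2 fold change −0.17, SE 0.048, edgeR adjusted P = 0.014). Those of the *Pax3* line had 426, 374 and 372 against 308, 336 and 297 CPM (log2 fold change −0.32, SE 0.064, edgeR adjusted P = 0.00066). The groups did not overlap in either line. The *Pax3*-line call held under every alternative, whereas the *Carm1*-line call was lost without mutant replicate 1 (−0.12, edgeR adjusted P = 0.18) or wild-type replicate 3 (−0.12, edgeR adjusted P = 0.064), with a term for Y-linked counts (−0.12, 0.065) and with all 12 libraries in a single fit (−0.17, 0.062). Skeletal muscle markers fell in both lines beside it, 9 of 13 in the *Carm1* line (summed 946 to 1110 CPM in wild types, 715 to 796 in mutants) and 10 of 13 in the *Pax3* line (533 to 609 and 308 to 339 CPM). No marker was at 0, and their part in the *Plagl1* change was not tested.

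*Dcn*, with *Plagl1* and *Ube3a*, completed the members that were lower in both lines. *Dcn* (chr10:97479609-97518143, + strand) encodes decorin, a proteoglycan of connective tissue, and is imprinted in placenta. It had 70.4, 64.1 and 73.0 and 55.1, 55.4 and 57.6 CPM in the *Carm1* line (log2 fold change −0.30, SE 0.056, edgeR adjusted P = 0.00023), a call that held under every alternative. *Pax3*-line embryos had 44.8, 35.1 and 36.7 and 32.6, 32.8 and 33.3 CPM (log2 fold change −0.24, SE 0.085, edgeR adjusted P = 0.038), where wild-type replicate 1 stood above the rest. That call was lost without wild-type replicate 1 (−0.13, edgeR adjusted P = 0.26), mutant replicate 1 (−0.24, 0.10), mutant replicate 2 (−0.24, 0.092) or mutant replicate 3 (−0.25, 0.080), and with length and GC offsets (−0.074, 0.58). Of 10 connective tissue markers 4 fell and 1 rose in the *Carm1* line (summed 4710 to 5360 CPM in wild types, 4280 to 4450 in mutants) and 3 fell of 9 tested in the *Pax3* line (2980 to 3720 and 2890 to 3370 CPM). No marker was at 0, and whether *Dcn* moved with these cells was not tested.

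Called members of the *Mest* cluster were found in the *Pax3* line and of the *Peg3* cluster in the *Carm1* line. *Mest* (chr6:30723547-30748465, + strand), the paternally expressed gene of a hydrolase-like protein of mesoderm, had 1438, 1363 and 1374 CPM in *Pax3*-line wild types and 1139, 1169 and 1131 CPM in mutants. The gap between the groups was wide beside the spread within them (log2 fold change −0.28, SE 0.066, edgeR adjusted P = 0.0026). *Copg2* (chr6:30747554-30896794, − strand), a maternally expressed coatomer gene whose end overlaps *Mest* on the other strand, fell with it from 68.6, 61.1 and 61.9 to 54.8, 54.7 and 51.8 CPM (log2 fold change −0.25, SE 0.062, edgeR adjusted P = 0.0041). Their log2 ratio per length overlapped between wild types (−4.85 to −4.77) and mutants (−4.82 to −4.75). Neither passed in the *Carm1* line (*Mest* log2 fold change 0.12, SE 0.046, edgeR adjusted P = 0.081), and the lines differed for *Mest* (interaction 0.41, SE 0.077, edgeR adjusted P = 0.00025) and *Copg2* (interaction 0.33, SE 0.084, edgeR adjusted P = 0.0051).

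*Zim1* (chr7:6671269-6696450, − strand), the maternally expressed zinc finger gene beside *Peg3*, rose in the *Carm1* line from 83.8, 77.3 and 80.0 to 91.7, 102 and 95.1 CPM (log2 fold change 0.26, SE 0.051, edgeR adjusted P = 0.0005), under every alternative. *Peg3* (chr7:6703892-6730431, − strand), a paternally expressed zinc finger gene of growth and maternal behaviour, had 757, 685 and 684 and 743, 814 and 779.7 CPM, with overlap because of wild-type replicate 1 (log2 fold change 0.14, SE 0.050, edgeR adjusted P = 0.065). Without that replicate *Peg3* was called (0.19, edgeR adjusted P = 0.0031). The log2 ratio of *Zim1* to *Peg3* per length was −2.45 to −2.37 in wild types and −2.31 to −2.28 in mutants. Neither passed in the *Pax3* line (*Zim1* log2 fold change −0.11, SE 0.063, edgeR adjusted P = 0.23, and *Peg3* log2 fold change −0.18, SE 0.076, edgeR adjusted P = 0.088). The lines differed for *Zim1* (interaction 0.38, SE 0.083, edgeR adjusted P = 0.0014) and *Peg3* (interaction 0.33, SE 0.094, edgeR adjusted P = 0.013). The *Peg3* difference missed the threshold without mutant replicate 2 of the *Carm1* line (0.29, edgeR adjusted P = 0.055) or mutant replicate 1 of the *Pax3* line (0.28, edgeR adjusted P = 0.055). *Usp29*, a deubiquitinase gene read from the same promoter region in the other direction, passed in neither.

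Among genes that stand apart from the large clusters, *Nnat* and *Grb10* changed in the *Pax3* line. *Nnat* (chr2:157560078-157562522, + strand), a paternally expressed proteolipid gene of hindbrain and neurons that lies within an intron of *Blcap*, rose from 776, 867 and 889 to 1086, 1009 and 1102 CPM (log2 fold change 0.34, SE 0.070, edgeR adjusted P = 0.00089). With length and GC offsets the rise was 0.065 (edgeR adjusted P = 0.47). Its maternally expressed partner *Blcap* had 65.6, 72.7 and 73.3 and 78.0, 76.8 and 78.6 CPM (log2 fold change 0.14, SE 0.059, edgeR adjusted P = 0.079). The log2 ratio of *Blcap* to *Nnat* per length was −4.33 to −4.30 in wild types and −4.54 to −4.45 in mutants. The lines differed for *Nnat* (interaction −0.41, SE 0.081, edgeR adjusted P = 0.00052), again not with those offsets (−0.14, edgeR adjusted P = 0.14). Of 10 neural progenitor markers 7 rose in the *Pax3* line (summed 972 to 1060 CPM in wild types, 1080 to 1200 in mutants), and 6 of 12 neuron markers fell (2390 to 2580 and 2120 to 2280 CPM). No marker was at 0, and their part in the rise of *Nnat* was not tested. Likewise in the *Carm1* line, where *Nnat* did not pass (log2 fold change −0.081, SE 0.046, edgeR adjusted P = 0.27), 8 of 10 neural progenitor markers rose and 5 of 12 neuron markers fell.

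*Grb10* (chr11:11930508-12038683, − strand), an adaptor that damps insulin and IGF signalling, fell in the *Pax3* line from 1673, 1595 and 1511 to 1291, 1343 and 1321 CPM (log2 fold change −0.27, SE 0.067, edgeR adjusted P = 0.0037), under every alternative. Its *Carm1*-line groups overlapped (log2 fold change 0.0069, SE 0.047, edgeR adjusted P = 0.95). The lines differed (interaction 0.29, SE 0.081, edgeR adjusted P = 0.01). *Slc38a4* (chr15:96994820-97055956, − strand), a paternally expressed amino acid transporter gene, fell in the *Pax3* line from 102, 88.4 and 86.8 to 73.7, 84.6 and 76.2 CPM (log2 fold change −0.24, SE 0.066, edgeR adjusted P = 0.0091). It did not pass in the *Carm1* line (log2 fold change 0.014, SE 0.048, edgeR adjusted P = 0.89). Its *Pax3*-line call was lost without wild-type replicate 1 (−0.16, edgeR adjusted P = 0.062), mutant replicate 1 (−0.20, 0.065) or mutant replicate 3 (−0.23, 0.055), and with length and GC offsets (−0.16, 0.085). The difference between the lines (interaction 0.27, SE 0.085, edgeR adjusted P = 0.024) was lost without mutant replicate 1 or wild-type replicate 3 of the *Carm1* line or wild-type replicate 1, mutant replicate 1 or mutant replicate 3 of the *Pax3* line (0.19 to 0.25, edgeR adjusted P = 0.054 to 0.095), and with length and GC offsets (0.20, 0.093).

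*Commd1* (chr11:22896136-22982382, − strand), a maternally expressed gene of copper and NF-κB control, rose in the *Pax3* line from 39.1, 42.7 and 47.3 to 50.9, 46.7 and 52.9 CPM (log2 fold change 0.22, SE 0.077, edgeR adjusted P = 0.037). It was the only called member whose groups overlapped. Called members were chosen by the test on these libraries, and the share of all genes without overlap was not counted. The *Commd1* call was lost without wild-type replicate 1 (0.15, edgeR adjusted P = 0.17), wild-type replicate 2 (0.22, 0.053), mutant replicate 1 (0.21, 0.12) or mutant replicate 3 (0.18, 0.17), and with DESeq2 (0.22, 0.056). *Zrsr1*, the paternally expressed splicing factor gene within an intron of *Commd1*, had 13.8, 15.1 and 16.3 and 10.7, 11.99 and 14.3 CPM in the *Carm1* line (log2 fold change −0.30, SE 0.11, edgeR adjusted P = 0.06). It was called lower without mutant replicate 3 or wild-type replicate 1 (edgeR adjusted P = 0.022 and 0.025). The log2 ratio of *Commd1* to *Zrsr1* per length was 0.953 to 1.16 in wild types and 1.30 to 1.62 in mutants of that line.

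*Impact* (chr18:12955852-12992950, + strand), a paternally expressed regulator of translation under amino acid stress, fell in the *Carm1* line from 55.4, 60.4 and 62.4 to 50.8, 53.7 and 47.9 CPM (log2 fold change −0.23, SE 0.058, edgeR adjusted P = 0.0074). The call was lost without mutant replicate 3 (−0.19, edgeR adjusted P = 0.076) or wild-type replicate 2 (−0.21, edgeR adjusted P = 0.053). *Pax3*-line mutants of *Impact* also lay below wild types, but it did not pass (log2 fold change −0.15, SE 0.063, edgeR adjusted P = 0.084). It did pass there in a single fit of all 12 libraries (edgeR adjusted P = 0.047). *Zdbf2* (chr1:63273265-63314576, + strand), a paternally expressed gene of the hypothalamus and feeding, went from 91.1, 86.2 and 89.3 to 91.8, 106 and 98.6 CPM in the *Carm1* line (log2 fold change 0.15, SE 0.052, edgeR adjusted P = 0.043). It lost the call without mutant replicate 2 (0.10, edgeR adjusted P = 0.31), mutant replicate 3 (0.16, 0.11) or wild-type replicate 2 (0.13, 0.19), and with the replicate block (0.15, 0.077), a single fit of all 12 libraries (0.16, 0.077) or DESeq2 (0.16, 0.094). It did not pass in the *Pax3* line (log2 fold change −0.12, SE 0.059, edgeR adjusted P = 0.14). The difference between the lines (interaction 0.28, SE 0.080, edgeR adjusted P = 0.011) was lost without mutant replicate 2 of the *Carm1* line (0.23, edgeR adjusted P = 0.059) and with length and GC offsets (0.17, 0.062). *Zdbf2* lies 14.8 Mb from *Pax3* on the same chromosome, and *Rasgrf1* 68.3 Mb from *Carm1*.

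**Figure D4:**
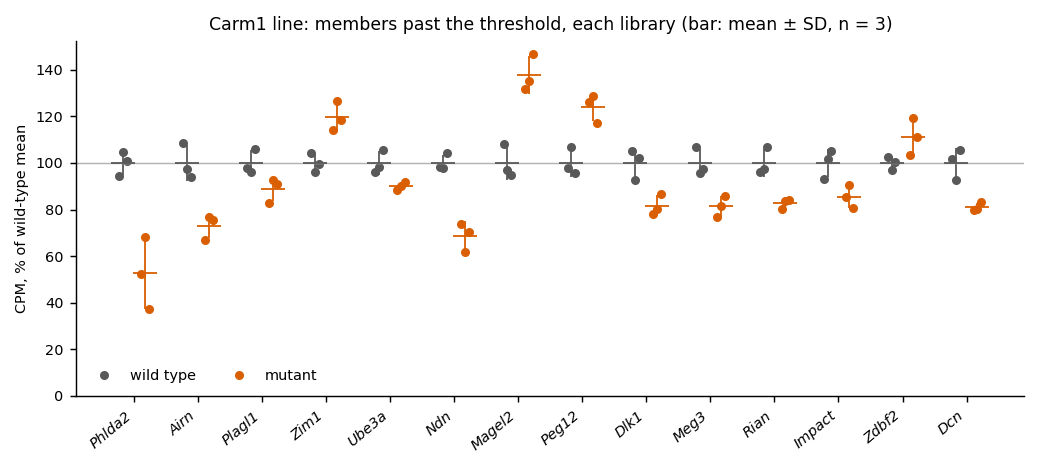
Level of the 14 members called in the *Carm1* line in each library, as CPM in percent of the wild-type mean, for wild-type (grey) and mutant (orange) libraries with points for libraries and bars for mean ± SD (n = 3). *Zim1*, *Magel2*, *Peg12* and *Zdbf2* lie above 100 and the other 10 below in all 3 mutants. The genes were chosen by the test on these same libraries, so the gap between their groups is not separate evidence.

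**Figure D5:**
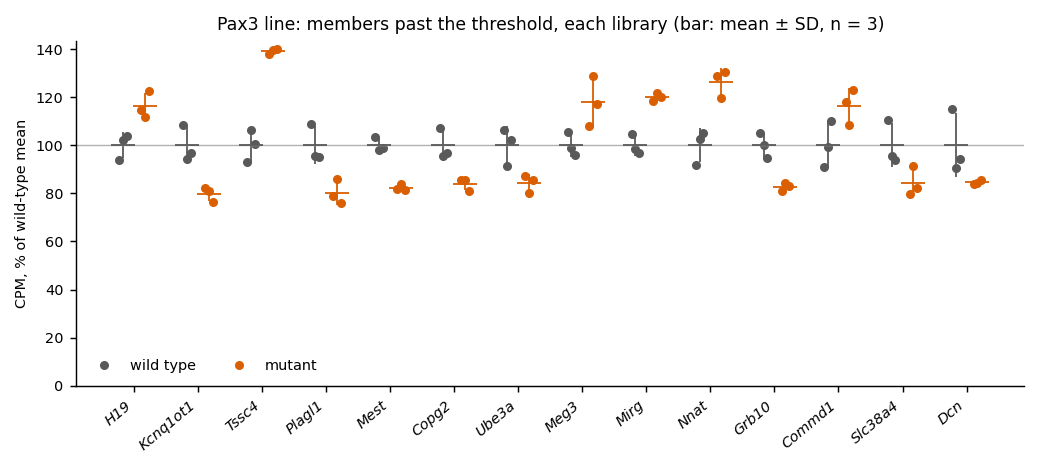
Level of the 14 members called in the *Pax3* line in each library, drawn as for the *Carm1* line. *Tssc4* lies highest among mutants, and *Commd1* is the gene whose mutant and wild-type points overlap.

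The remaining members did not pass in either line. *Gnas*, the gene of the stimulatory G protein alpha subunit, had 1305, 1283 and 1318 and 1286, 1240 and 1282 CPM in the *Carm1* line (log2 fold change −0.036, SE 0.046, edgeR adjusted P = 0.68, 95% interval −0.13 to 0.055). It did not pass in the *Pax3* line either (log2 fold change −0.070, SE 0.065, edgeR adjusted P = 0.46). *Mcts2*, a retrogene, and *H13*, the signal peptide peptidase gene that holds it on the same strand, passed in neither line, nor did *Sfmbt2*, a Polycomb gene of placenta. *Rasgrf1* had under 1 CPM in every library. In all, 17 members tested in both lines passed in neither.

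Several members missed the threshold by little and passed when 1 library was left out, with edgeR throughout. In the *Carm1* line these were *Mest* without wild-type replicate 3 (0.13, adjusted P = 0.046), *Cd81* without wild-type replicate 1 (−0.14, adjusted P = 0.025) and *Rasgrf1* without mutant replicate 3 (−1.73, adjusted P = 0.047), beside *Peg3*, *Rtl1* and *Zrsr1*. In the *Pax3* line they were *Igf2r* without wild-type replicate 3 (−0.30, adjusted P = 0.014) or mutant replicate 2 (−0.30, adjusted P = 0.045), *Peg3* without wild-type replicate 3 (−0.24, adjusted P = 0.027), and *Sfmbt2* without wild-type replicate 2 (−0.48, adjusted P = 0.019). In the *Ndn* cluster *Magel2* passed without mutant replicate 3 (0.26, adjusted P = 0.048), *Mkrn3* without wild-type replicate 3 (0.32, adjusted P = 0.049) and *Peg12* without wild-type replicate 2 (0.19, adjusted P = 0.045). *Igf2* passed in the *Carm1* line with DESeq2 (−0.096, adjusted P = 0.044), as did *Mest* and *Peg3*. DESeq2 also brought *Peg3* past the threshold in the *Pax3* line, and the difference between the lines for *Cdkn1c*. All 12 libraries in a single fit brought *Impact*, *Magel2* and *Peg3* past the threshold in the *Pax3* line. With a term for Y-linked counts *Cdkn1c* (edgeR adjusted P = 0.037), *Blcap* (0.038), *Zdbf2* (0.045), *Sfmbt2* and *Peg3* passed in the *Pax3* line. The same term brought *Mest* and *Rtl1* past the threshold in the *Carm1* line, and the difference between the lines for *Cdkn1c*, *Cd81* and *Blcap*. Length and GC offsets brought *Nap1l4* (0.11, adjusted P = 0.010), *Peg3* (0.18, 0.00037), *Mest* (0.15, 0.0027) and *Zrsr1* (−0.27, 0.049) past the threshold in the *Carm1* line and *Gnas* in the *Pax3* line (−0.17, 0.020). With the same offsets the difference between the lines passed for *Kcnq1ot1* (0.36, adjusted P = 0.00027) and *H13* (0.17, 0.031), beside *Rian* and *Peg12*. The difference between the lines passed for *Cdkn1c* without wild-type replicate 3 of the *Carm1* line (−0.24, adjusted P = 0.045) or wild-type replicate 2 of the *Pax3* line (−0.24, adjusted P = 0.034), for *Cd81* and *Blcap* without wild-type replicate 2 or 3 of the *Pax3* line (−0.23 to −0.22, adjusted P = 0.029 to 0.043), and for *Rian* without wild-type replicate 1 of that line (−0.21, adjusted P = 0.046).

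Comparing the effects directly, 14 of the 42 members differed between the lines. The effect was more positive in the *Carm1* line for 8 and in the *Pax3* line for 6. That is 33.3%, where 19.1% of all 16292 genes differed (8.65% and 10.5% in these directions). Members called in either line that showed no difference, such as *Plagl1* (interaction 0.16, SE 0.082, edgeR adjusted P = 0.19) and *Airn*, cannot be called specific to a line. Levels already differed between the wild types of the lines for 24 members (8 higher and 16 lower in the *Pax3* line), that is 57.1% where 43.7% of all genes differed (20.6% higher, 23.1% lower). With length and GC offsets 14 members were higher and 11 lower, and the share over all genes with these offsets is not given here. In the *Dlk1*-*Meg3* cluster all 6 genes were lower in *Pax3*-line wild types, among them *Meg3* (log2 fold change −0.92, edgeR adjusted P = 4.9e-13), *Mirg* (−0.43, 2.9e-05), *Dlk1* (−0.27, 0.00012) and *Rian* (−0.19, 0.0064). The *Rian* call was lost without *Carm1*-line wild-type replicate 3 or *Pax3*-line wild-type replicate 2 (edgeR adjusted P = 0.065 and 0.051). With length and GC offsets *Dlk1* was at −0.16 (edgeR adjusted P = 0.0022). Strain, colony and laboratory cannot be told apart here.

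Of the factors that set and protect imprints, 4 of 21 tested rose in the *Carm1* line and 1 fell. The de novo methyltransferase gene *Dnmt3b* rose from 21.0 ± 0.693 to 25.8 ± 0.744 CPM (mean ± SD, n = 3, log2 fold change 0.30, SE 0.076, edgeR adjusted P = 0.0064). *Trim28*, whose protein binds ZFP57 at imprinting control regions, rose from 551 ± 15.5 to 620 ± 14.9 CPM (0.17, edgeR adjusted P = 0.010) and *Tet2*, a demethylation enzyme gene, from 76.7 ± 2.53 to 85.6 ± 2.49 CPM (0.16, 0.032). *Zfp57* itself fell from 134 ± 4.23 to 117 ± 2.82 CPM (log2 fold change −0.19, edgeR adjusted P = 0.0037). Of 21 tested in the *Pax3* line 1 rose, *Dnmt3a* (0.18, edgeR adjusted P = 0.032), and 1 fell, *Smchd1* (−0.22, 0.012). Median log2 fold changes were 0.051 and −0.018, against 0.0014 and −0.0026 over all genes. Of all genes 5.49% rose and 7.83% fell in the *Carm1* line, and 14.0% rose and 10.5% fell in the *Pax3* line.

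In the insulin-like growth factor axis, to which *Igf2*, *Igf2r* and *Grb10* belong by function, 3 of 17 other genes rose and 2 fell in the *Carm1* line, and 1 of 16 rose and 6 fell in the *Pax3* line. *Igf1*, the growth factor gene related to *Igf2*, fell in both, from 152 ± 9.12 to 133 ± 4.73 CPM (log2 fold change −0.20, edgeR adjusted P = 0.0045) and from 128 ± 10.9 to 108 ± 3.82 CPM (−0.25, 0.0035). The binding protein gene *Igfbp2* rose in the *Carm1* line (0.29, edgeR adjusted P = 3.3e-05) with *Irs1*, the receptor substrate (0.22, 0.0033), while *Igfbp5* fell (−0.18, 0.010). Among *Pax3*-line changes *Pappa2*, a protease that releases IGF from binding proteins, fell by 0.77 on the log2 scale (edgeR adjusted P = 3.1e-06), *Igfbp3* fell by 0.45 (1.6e-06) and *Igfbp7* rose (0.73, 0.00018). Median log2 fold changes were −0.036 and −0.025. The shares of all genes that rose and fell were 5.49% and 7.83% in the *Carm1* line and 14.0% and 10.5% in the *Pax3* line.

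Of other imprinted genes, beyond the 42, 1 of 15 tested rose in the *Carm1* line (*Slc22a3*, a cation transporter gene near *Igf2r*, 0.72, edgeR adjusted P = 0.037) and 1 of 15 fell in the *Pax3* line (*Eif2c2*, an older symbol of *Ago2*, −0.19, 0.0096), with medians of −0.064 and −0.048, where 5.49% of all genes rose in the *Carm1* line and 10.5% fell in the *Pax3* line. Of 74 genes that flank the clusters, 5 rose and 8 fell in the *Carm1* line and 8 rose and 10 fell in the *Pax3* line, with medians of 0.0095 and −0.046. *Slc22a3*, which rose in the *Carm1* line, *Tspan32*, *Atp10a*, *Klf14* and *Ddc* are also among the other imprinted genes. *Tnnt3* is also a skeletal muscle marker and *Lum* a connective tissue marker. Over all genes 5.49% rose and 7.83% fell in the *Carm1* line, and 14.0% rose and 10.5% fell in the *Pax3* line. The largest changes of flanking genes were *Plg*, *Tnnt3* and *Itih2* in the *Carm1* line (−1.24, −1.09 and −0.92, edgeR adjusted P = 1.2e-09, 8.3e-06 and 1.0e-10), of which *Plg* and *Itih2* are genes of liver and *Tnnt3* of skeletal muscle. They were *Mthfs*, *Kera*, *Vstm2l* and *Manbal* in the *Pax3* line (0.82, −0.67, 0.64 and 0.60, edgeR adjusted P = 0.0048, 0.014, 2.2e-05 and 5.3e-06). *Vstm2l* and *Manbal* lie next to *Nnat* and *Blcap*. Of the remaining marker lists, 6 of 9 erythroid markers fell and 1 rose in the *Carm1* line, whereas 9 of 9 missed the threshold in the *Pax3* line (edgeR, median log2 fold change 0.0080). Summed erythroid levels overlapped between wild types and mutants, at 5410 to 9530 and 7630 to 8990 CPM in the *Carm1* line. In the *Pax3* line they were 6060 to 8670 and 7880 to 10200 CPM. Of cartilage markers, 7 of 10 fell in the *Carm1* line and 3 of 9 rose in the *Pax3* line. Their sums were 957 to 1210 CPM in wild types and 937 to 964 in mutants of the *Carm1* line, which overlapped. In the *Pax3* line they were 635 to 835 and 841 to 979 CPM. The shares over all genes given for the flanking genes apply to every marker list.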

How the data were processed

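Whole mouse embryos at E12.5 gave 12 libraries, 3 mutants and 3 wild types in each of the *Carm1* and *Pax3* lines, grouped by their labels. The authors selected polyadenylated RNA, sequenced it in pairs, aligned the reads to mm10 with STAR and counted them per gene (featureCounts). As deposited, the values are raw counts of each library, neither normalized nor pooled. Tool versions, strand setting and gene annotation are not given in the sources used here. Separate embryos are the replicates, but their litters were not given.

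Coordinates and exon lengths came from GENCODE for GRCm38, which is mm10. Of 23420 symbols, 21785 were found unaltered, 1260 under a former name and 375 not at all. Tests used edgeR (version 4.0.16, in R 4.3.3). After filterByExpr and TMM scaling, its quasi-likelihood test with robust dispersions was applied to each line separately, with Benjamini-Hochberg adjustment over all genes and a threshold of 0.05. The difference between the lines and the wild types were tested in a single fit of all 12 libraries. Fold changes are mutant over wild type. CPM use TMM factors of the line, and RPKM those of all 12 libraries. Exact permutation of 3 against 3 libraries allows no P below 0.1 and was not used. The test was also run on simulated counts. Promoters and microRNA hairpins come from RefSeq tables, the former with an entry for 36 members.

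The members, gene lists and rules were chosen with earlier results of these data known. Values are given for every member past the threshold in either line, for reciprocal partners and for the most abundant gene of a cluster, and for at most 4 called genes per other list and line. *Mkrn3*, *Rtl1*, *Atp10a*, *Chrna7*, *Begain*, the members named for a change of call without a library and the genes named from the wild types were added after their values were seen. Alternatives were DESeq2 (version 1.42.0), RLE and upper-quartile factors, no filter on low counts, at least 10 counts in every library, all 12 libraries in a single fit, the replicate number as a block, a term for libraries with at least 100 Y-linked counts, offsets for GC content and transcript length (splines with 5 degrees of freedom) and leaving out each library in turn. A result on 1 flanking gene is not reported here.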

Additional observations from a re-analysis of the deposited data

Results flagged for a closer look

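The effect of the mutation differed between the lines for 14 members, by edgeR's test of the interaction over all 12 libraries (effect in the *Carm1* line minus effect in the *Pax3* line, log2 scale), and these were singled out for that reason. The effect was more positive in the *Carm1* line for *Mest* (0.41, SE 0.077, adjusted P = 0.00025), *Zim1* (0.38, SE 0.083, adjusted P = 0.0014), *Copg2* (0.33, SE 0.084, adjusted P = 0.0051), *Peg3* (0.33, SE 0.094, adjusted P = 0.013), *Grb10* (0.29, SE 0.081, adjusted P = 0.01), *Zdbf2* (0.28, SE 0.080, adjusted P = 0.011), *Magel2* (0.28, SE 0.099, adjusted P = 0.045) and *Slc38a4* (0.27, SE 0.085, adjusted P = 0.024). It was more negative for *Ndn* (−0.57, SE 0.081, adjusted P = 8.9e-06), *Meg3* (−0.53, SE 0.092, adjusted P = 0.00011), *Tssc4* (−0.47, SE 0.083, adjusted P = 0.00013), *Nnat* (−0.41, SE 0.081, adjusted P = 0.00052), *Dlk1* (−0.29, SE 0.076, adjusted P = 0.0067) and *H19* (−0.26, SE 0.083, adjusted P = 0.024). With length and GC offsets the difference was −0.13 for *H19* (adjusted P = 0.19), −0.14 for *Nnat* (0.14), −0.23 for *Tssc4* (0.026), 0.17 for *Zdbf2* (0.062) and 0.20 for *Slc38a4* (0.093). Mutated gene, strain, colony and laboratory differ together between the lines and cannot be told apart.

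*Meg3* is the single member called in both lines with opposite signs by the main test. By that test *Ndn*, *Dlk1*, *Zim1*, *Magel2* and *Zdbf2* passed in the *Carm1* line and not in the *Pax3* line, and *Mest*, *Copg2*, *Grb10*, *Tssc4*, *Nnat*, *Slc38a4* and *H19* the other way round. In the single fit of all 12 libraries *Magel2* was also called higher in the *Pax3* line, and *Zdbf2* was not called in the *Carm1* line. *Peg3* was called in neither line by the main test, although its effects differed. In the single fit of all 12 libraries it was called lower in the *Pax3* line. With DESeq2 it was called higher in the *Carm1* line and lower in the *Pax3* line.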

How the results depend on the processing

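No called member changed sign in either line or in the difference between the lines under any alternative. In the comparison of wild types 1 called member did. *Kcnq1ot1* was lower in *Pax3*-line wild types (log2 fold change −0.78, edgeR adjusted P = 0.00018), but higher (0.31) under 1 alternative, and was called in all 20 alternatives. In the *Carm1* line 9 of the 14 calls held under every alternative and in the *Pax3* line 6 of 14, as did 8 of the 14 differences between the lines. The number of members called was 10 to 17 in the *Carm1* line and 9 to 15 in the *Pax3* line when a library was left out, against 14 in each, 10 to 16 against 14 for the difference between the lines, and 21 to 26 against 24 for the wild types. The 9 came without mutant replicate 3 of the *Pax3* line, a library with Y-linked counts. A term for Y-linked counts gave 13 called members in the *Carm1* line, 19 in the *Pax3* line and 17 for the difference between the lines. Over all genes this term gave 2026, 4326 and 3353 calls, against 2106, 3851 and 3115 without it. All 12 libraries in a single fit gave 11 members in the *Carm1* line and 17 in the *Pax3* line, with 1678 and 4596 calls over all genes. Over all genes, calls went from 2106 to 3203 with length and GC offsets and to 1224, 1381 and 1349 without mutant replicates 1 and 2 and wild-type replicate 2 in the *Carm1* line, and from 3851 to 2565 and 2454 without mutant replicates 1 and 3 in the *Pax3* line. The causes were not tested.

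Mutants and wild types share replicate numbers in their labels. Same-numbered libraries did not deviate together in the *Carm1* line (r of −0.041, 0.00082 and −0.042). In the *Pax3* line r was 0.13, −0.092 and 0.23. There mutant replicates 1 and 3 correlated best with the wild type of their own number, and mutant replicate 2 with wild-type replicate 1 (0.24). With the replicate number as a block, 11, 14, 13 and 24 members were called in the *Carm1* line, the *Pax3* line, the difference between the lines and the wild types. Over all genes the block gave 1787 calls in the *Carm1* line, 4177 in the *Pax3* line and 3094 for the difference. Without the block these were 2106, 3851 and 3115.

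Counts per gene limit what can be read: parental copies, isoforms and, for antisense neighbours, strands were not separated. *Phlda2*, *Slc22a18* and *Rasgrf1* were near the lower limit of the depth, with about 1 to 2 CPM or less.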
